A study of Mus musculus with 9 samples.

Results

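The collagen genes are the 44 genes whose array annotation gives a single symbol made of Col, digits, a and digits, such as Col1a1. They were represented by 46 transcript clusters out of 33323 on the array, and by 44 of the 19938 genes with a single symbol. Col6a5 and Col6a6 each had 2 clusters, and the cluster with the higher mean over the 8 beating and non-beating arrays was used. The level of a gene is given as its log2 signal, the log2-scaled hybridisation signal of its transcript cluster on an Affymetrix Mouse Gene 1.0 ST array, and a difference of 1 in log2 signal is a doubling.

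All arrays came from primary cultures of the stromal vascular fraction (SVF), the mixed non-adipocyte cells released by digestion of inguinal subcutaneous fat, of C57BL6/J mice aged 10 weeks. No transgene, deletion or inducing agent was used: every culture was seeded at 5000 live cells/cm2 on uncoated plastic and kept in a minimal IMDM medium with 10% FBS. The beating group (n = 4) was made of spontaneously contracting colonies picked by hand on day 28, each sample combining dishes that shared an SVF lot, and the non-beating group (n = 4) of the remaining cells on day 28. The round sample (n = 1) was a pool of 6 round cells picked on day 14, so it differed from the other groups in day, in the amount of RNA and in having no replicate. The labels do not say that the 4 replicates of a group came from separate animals, so the p-values measure only the spread between these samples.

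Collagens are trimers whose chains wind into a triple helix, and each gene encodes 1 chain. Fibrillar collagens such as types I, III and V form the load-bearing fibres of connective tissue, and FACIT members (fibril-associated collagens with interrupted triple helices) sit on the surface of those fibres. Type IV forms the sheet-like scaffold of basement membranes, type VI forms beaded filaments around cells, and the short chains of types VIII and X form networks. In adipose tissue the fibroblast-like stromal cells are the main collagen producers, whereas fat cells and muscle fibres are each wrapped in a basement membrane.

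The sequences just upstream of 3 collagen genes are shown because results turn on their levels. Col1a2 and Col3a1 were each set against Col1a1, and Col8a1 had the highest mean signal of the collagens. Windows of 250 bases before the gene start were taken from RefSeq on GRCm38.p6, where 35 of the 44 genes had such a window, and are written 5′ to 3′ on the strand of the gene. Capitals mark matches, on either strand, to the TATA-type motif TATAAA, to the CCAAT box, to the GC-box core GGGCGG (which reads CCGCCC where it lies on the other strand) or to the E-box form CANNTG. The Col1a2 window lies at chr6:4505368-4505617 on the plus strand, the Col3a1 window at chr1:45311288-45311537 on the plus strand and the Col8a1 window at chr16:57754738-57754987 on the minus strand.
Col1a2: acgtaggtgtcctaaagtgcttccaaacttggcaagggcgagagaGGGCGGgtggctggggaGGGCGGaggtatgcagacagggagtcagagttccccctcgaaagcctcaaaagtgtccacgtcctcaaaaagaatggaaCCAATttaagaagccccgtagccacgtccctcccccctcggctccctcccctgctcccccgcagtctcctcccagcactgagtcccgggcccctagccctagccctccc
Col3a1: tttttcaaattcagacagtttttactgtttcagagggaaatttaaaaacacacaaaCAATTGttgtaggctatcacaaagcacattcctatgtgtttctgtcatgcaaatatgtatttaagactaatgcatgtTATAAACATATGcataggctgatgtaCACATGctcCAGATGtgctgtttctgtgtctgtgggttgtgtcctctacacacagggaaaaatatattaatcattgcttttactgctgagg
Col8a1: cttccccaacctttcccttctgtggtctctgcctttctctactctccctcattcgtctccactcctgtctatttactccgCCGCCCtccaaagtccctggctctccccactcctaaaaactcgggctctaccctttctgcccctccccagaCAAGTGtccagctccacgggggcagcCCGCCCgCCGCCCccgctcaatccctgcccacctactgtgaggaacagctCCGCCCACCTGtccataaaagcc
The Col1a2 window held 1 CCAAT match, 109 bases before the start, and 2 GGGCGG matches, with a GC content of 62%. The Col3a1 window held no CCAAT or GGGCGG match but 1 TATAAA match, 117 bases before the start and directly followed by CATATG, which is 1 of its 4 CANNTG matches, and its GC content was 35.2%. The Col8a1 window held 4 GGGCGG and 2 CANNTG matches, of which the last pair share 1 base, at a GC content of 60.8%. Among the 35 collagen windows, TATAAA was found in 14.3%, CCAAT in 34.3%, GGGCGG in 60% and CANNTG in 51.4%. Among all 32851 windows of the same length the shares were 12.4%, 33.8%, 32.7% and 66.2%. A match describes the letters only, and no binding of a factor was measured.

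To ask whether the picked colonies carried a different collagen makeup from the rest of the dish, each gene was compared between the 4 beating and the 4 non-beating samples. Of the 44 collagen genes, 2 fell in the beating samples (4.55%), Col28a1 and Col14a1, none rose, and 42 did not pass the test (limma, threshold 0.05 after Benjamini-Hochberg adjustment across the 33323 clusters). Over all clusters 6.16% passed in either direction, 2.82% higher and 3.34% lower, so the collagen share was close to the background. At an unadjusted p under 0.05 in the same limma fit, 7 of the 44 would have passed. The share of all clusters at that threshold was not counted, so the 7 cannot be read as an excess. Without beating replicate 1 the count of genes that rose was 1 (Col25a1). The median difference of the 44 genes was -0.04 in log2 signal, with 27 below 0, against 0.01 over all clusters.

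**Figure D1:**
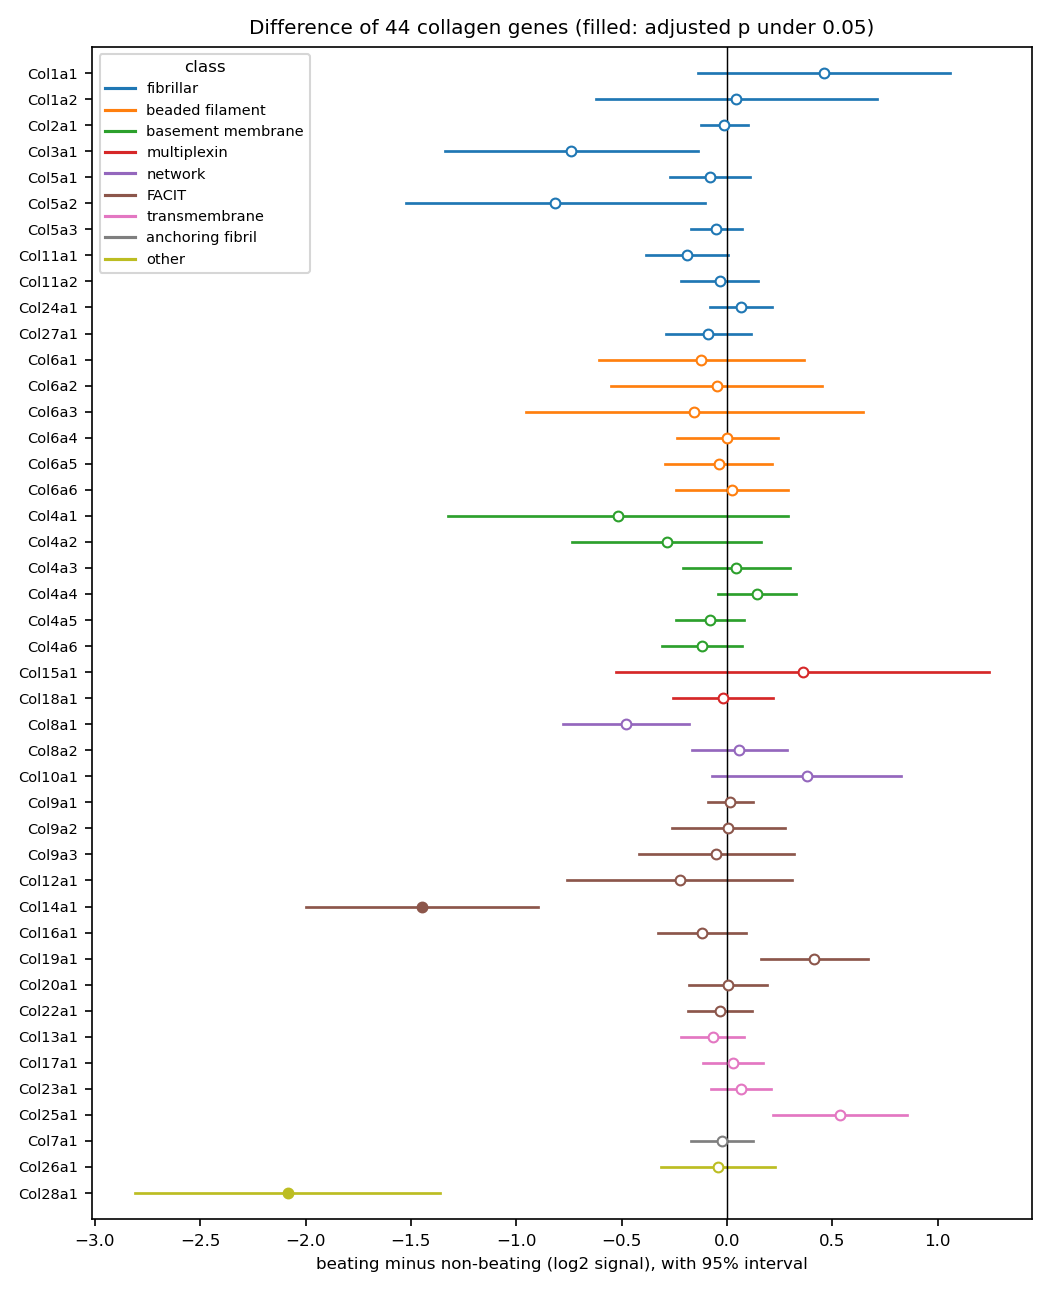
Difference in log2 signal (beating minus non-beating, horizontal axis) of each of the 44 collagen genes with its 95% confidence interval from limma, 4 against 4 arrays, coloured by collagen class. Col14a1 at -1.45 and Col28a1 at -2.09 are the filled points, the only genes past the adjusted threshold, and most other points lie close to 0.

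Col28a1 had the largest difference of the 44. It encodes a chain with von Willebrand A domains that is best known from the basement membranes of peripheral nerve, and it lies on chromosome 6 at 7997100 to 8193709 (GRCm38). Its log2 signal was 8.30, 8.18, 8.23 and 7.47 in non-beating replicates 1 to 4, and 5.23, 5.78, 6.66 and 6.17 in beating replicates 1 to 4. The groups did not overlap, and the highest beating sample was below the lowest non-beating sample. The difference was -2.09 ± 0.31 (SE; limma adjusted p = 0.00873), a 4.24-fold lower signal. The round pool, at 4.87, was below every beating sample as deposited but not after quantile normalisation of the 9 arrays, and its difference from the 8 other arrays was at the 43.2 percentile of the 500 clusters nearest in mean signal. The 4 Schwann cell markers analysed (Sox10, S100b, Foxd3 and Ngfr) did not pass the test, and their mean log2 signal was 4.59 to 4.92 in the non-beating and 4.40 to 4.71 in the beating samples.

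Col14a1 was the other collagen that fell. It encodes a FACIT chain that decorates type I collagen fibrils and lies on chromosome 15 at 55307644 to 55520803. Its log2 signal was 7.51, 6.92, 6.96 and 6.34 in the non-beating and 5.51, 5.63, 5.12 and 5.69 in the beating samples. Again no beating sample reached a non-beating one, and the beating samples lay closer together. The difference was -1.45 ± 0.24 (SE; limma adjusted p = 0.0127), a 2.72-fold lower signal. With the ordinary unmoderated test of the study's methods the call was lost (the methods' t-test after Benjamini-Hochberg adjustment, adjusted p = 0.0571), while Col28a1 passed (adjusted p = 0.0467).

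Markers of several cell types differed between the groups. All 11 fibroblast markers had a difference below 0 (median -0.99), 4 of them passing the test where 10.3% of clusters with a mean above 5 were lower, and their mean log2 signal was 7.93 to 8.61 in the non-beating, 7.08 to 7.39 in the beating and 4.11 in the round sample. All 10 macrophage markers had a difference below 0 (median -1.40), although only Mpeg1 passed the test, and their mean log2 signal was 5.18 to 6.64 in the non-beating, 3.28 to 5.18 in the beating and 3.58 in the round sample. Of the 11 muscle markers, 10 were higher (all but Ckm), against 2.82% of all clusters, with a mean log2 signal of 3.64 to 4.14 in the non-beating, 8.80 to 9.10 in the beating and 9.37 in the round sample. In such bulk samples, fewer cells of a type and less RNA per cell cannot be told apart, and the part of any of these cell types in the collagen differences was not tested.

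The signal level set how much could be read from a gene. Only 14 of the 44 collagen genes had a mean log2 signal above 5 over the 8 arrays, a level chosen after the values were seen, and both calls were among them (14.3%, against 16.1% of the 8338 clusters above that level, 5.86% higher and 10.3% lower). Below it lay 30 genes with no call. At least 2 of the 8 arrays had the same value, within a tolerance of 1e-06, for 22 of the 30 dim and 4 of the 14 brighter genes, and for 48.9% of all clusters. The median difference of the 14 brighter genes was -0.26, with 11 of 14 below 0, against -0.10 over all clusters above that level. For a dim gene a fold change compares signals with background in them.

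The fibrillar class held 11 genes, of which none passed the test, and its median difference was -0.05, with single genes from -0.81 to 0.46. Col1a1 and Col1a2, which encode the α1 and α2 chains of type I collagen, are described with Col3a1, which encodes the single chain of type III. The log2 signal of Col1a1 was 7.38, 7.32, 7.37 and 7.03 in the non-beating and 7.33, 7.18, 8.31 and 8.13 in the beating samples. That of Col1a2 was 7.74, 7.70, 7.59 and 7.18 against 7.04, 7.11, 8.10 and 8.15. For both genes, beating replicates 3 and 4 were above every non-beating sample, whereas replicates 1 and 2 were within or just below their range. The difference was 0.46 (95% interval -0.14 to 1.06; limma adjusted p = 0.371) for Col1a1 and 0.04 (-0.62 to 0.71; adjusted p = 0.954) for Col1a2, so neither differed by more than the spread between replicates.

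Col3a1 had the highest mean of the fibrillar genes. Its log2 signal was 8.58, 8.35, 8.34 and 7.59 in the non-beating and 7.17, 7.08, 7.85 and 7.80 in the beating samples. Non-beating replicate 4 fell among the beating values, and the other 3 non-beating samples lay above all of them. The difference was -0.74 (-1.34 to -0.14; limma adjusted p = 0.151). Col5a2, which encodes the α2 chain of type V collagen and lies 24624 bases from Col3a1 on chromosome 1, had 7.29, 7.35, 7.44 and 7.01 against 5.75, 6.02, 7.14 and 6.93, a difference of -0.81 (-1.52 to -0.10; adjusted p = 0.179). Its partner chain Col5a1 was at 5.20, 5.28, 5.27 and 5.20 in the non-beating and 5.28, 4.93, 5.22 and 5.20 in the beating samples, a difference of -0.08. Thus the intervals of Col3a1 and Col5a2 did not include 0, but neither gene passed after adjustment over all clusters. The other 6 fibrillar genes (Col2a1, Col5a3, Col11a1, Col11a2, Col24a1 and Col27a1) had means below 5, and their differences lay between -0.19 and 0.07.

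**Figure D2:**
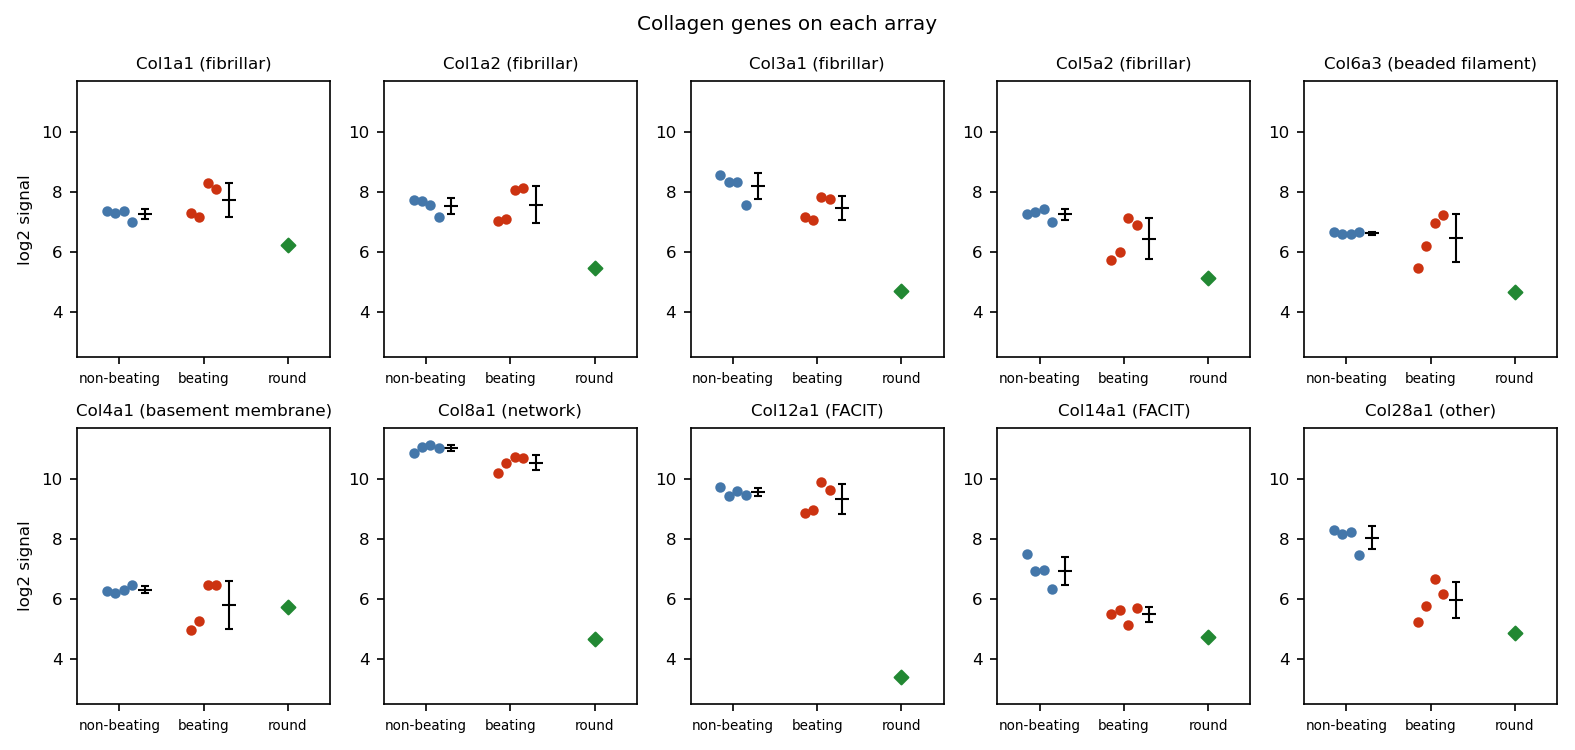
Log2 signal of 10 collagen genes on every array, with non-beating samples in blue, beating samples in red and the round pool as a green diamond; black bars give the mean ± SD of 4 arrays. Col14a1 and Col28a1 are lower in all 4 beating samples, Col1a1 and Col1a2 are split within the beating group, and Col8a1 (10.18 to 11.13 in both groups) and Col12a1 (8.85 to 9.88) are at 4.68 and 3.40 in the round pool.

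Chains of one fibre system can also be set against each other within an array, where a shift of all signals cancels. This was done for 6 pairs of chains, chosen after the values were seen. A ratio of signals from different probes has no absolute meaning, so only its change between groups was read. The log2 ratio of Col1a1 over Col1a2 was -0.35, -0.38, -0.22 and -0.15 in the non-beating samples and 0.29, 0.07, 0.22 and -0.02 in the beating samples. That of Col3a1 over Col1a1 was 1.19, 1.02, 0.97 and 0.56 in the non-beating and -0.15, -0.10, -0.46 and -0.33 in the beating samples. For both ratios the groups did not overlap, including beating replicates 3 and 4, in which Col1a1 itself was high. Both ratios contain Col1a1, so they are not independent results.

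The change in log2 ratio was 0.42 for Col1a1 over Col1a2 and -1.20 for Col3a1 over Col1a1. Each had p = 0.0286 in a two-sided exact permutation test over the 70 splits of 8 samples, which is the smallest p this design can give. The adjusted exact p over the 6 ratios was 0.0857 for each, so neither passed. With only these ratios at the smallest p, no size of change could have given a lower adjusted p, so this outcome decides nothing. The pairs were chosen after the values were seen, so the p-values only describe them. The range when each sample was left out in turn was 0.37 to 0.47 and -1.33 to -1.11. The log2 ratio of Col5a2 over Col5a1 changed by -0.74 (exact permutation p = 0.0571, adjusted p = 0.114). The 3 remaining ratios, Col4a1 over Col4a2, Col6a1 over Col6a2 and Col6a3 over Col6a1, changed by -0.23, -0.07 and -0.03 (exact permutation p = 0.543, 0.6 and 0.914), and their groups overlapped.

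**Figure D3:**
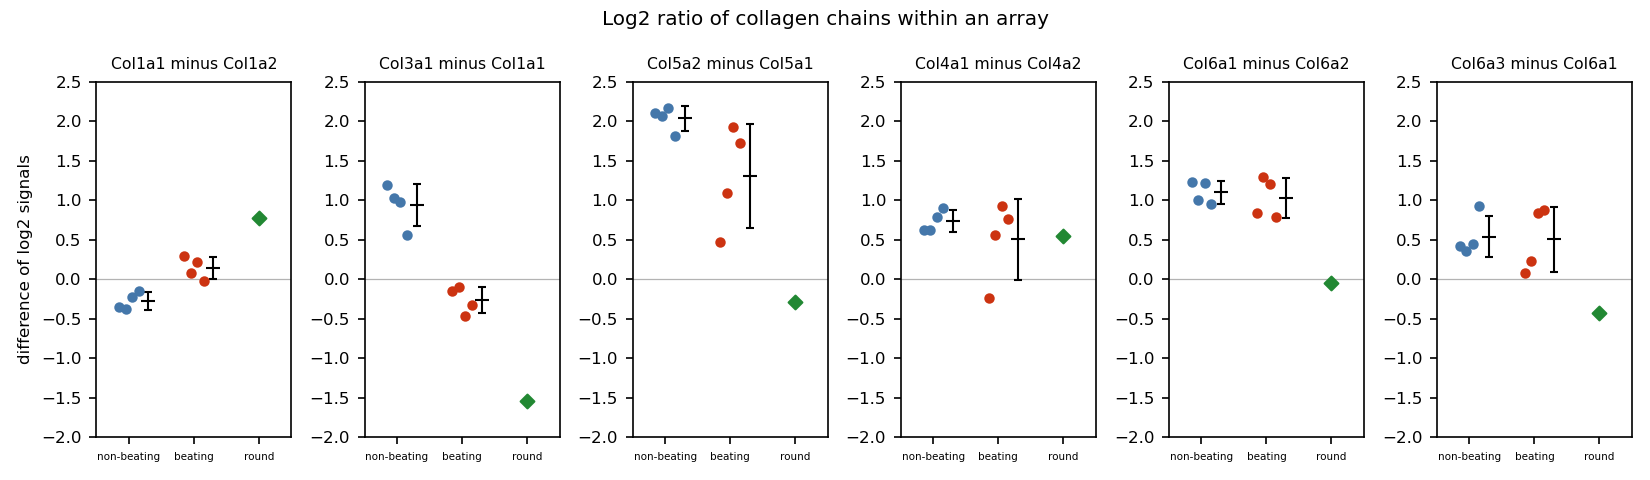
Log2 ratio of 6 pairs of collagen chains within each array (vertical axis), with non-beating samples in blue, beating samples in red, the round pool as a green diamond and bars for the mean ± SD of 4 arrays. Col1a1 over Col1a2 is higher and Col3a1 over Col1a1 lower in all 4 beating samples, with the round pool at 0.78 and -1.54. The pool is also below all beating and non-beating samples for Col5a2 over Col5a1 (-0.29), Col6a1 over Col6a2 (-0.05) and Col6a3 over Col6a1 (-0.42). For Col4a1 over Col4a2 it is within their range (0.54). The shift of the pool depends on signal level, so it does not cancel in a ratio.

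In the basement membrane class, 6 genes of type IV collagen, none passed the test, and the median difference was -0.10. Only Col4a1 and Col4a2 were above a mean of 5. They encode the chains of the common type IV trimer, and on chromosome 8 they start back to back, with gene records (11198423 to 11312889 and 11312805 to 11449287) that overlap by 85 bases. The log2 signal of Col4a1 was 6.26, 6.20, 6.31 and 6.48 in the non-beating and 4.96, 5.28, 6.46 and 6.48 in the beating samples. That of Col4a2 was 5.64, 5.57, 5.53 and 5.57 against 5.19, 4.73, 5.53 and 5.72. In beating replicates 1 and 2 both genes were below every non-beating sample, and in replicates 3 and 4 they were at or near the non-beating level. The differences were -0.52 (-1.32 to 0.29; limma adjusted p = 0.465) for Col4a1 and -0.29 (-0.74 to 0.16; adjusted p = 0.468) for Col4a2. The chains with a narrower tissue range, Col4a3 to Col4a6, had differences of -0.12 to 0.14 at means below 5.

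Endothelial markers also varied among the beating samples. Cdh5, which encodes the endothelial cadherin, had a log2 signal of 4.15, 6.98, 7.76 and 8.37 in the beating and 7.22, 6.61, 7.34 and 8.10 in the non-beating samples. Only beating replicate 1 was thus below every non-beating sample for Cdh5, unlike the split of Col4a1 and Col4a2. The mean of the 8 endothelial markers was 3.56, 4.26, 4.88 and 5.12 in the beating and 4.35 to 5.17 in the non-beating samples, and none of the 8 passed the test. Whether these cells had a part in the type IV values was not tested.

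The network class was made of Col8a1, Col8a2 and Col10a1, and none passed the test (median difference 0.06). Col8a1 encodes a short-chain collagen known from vessel walls and the corneal Descemet membrane, and lies on chromosome 16 at 57624256 to 57754737. Its log2 signal was 10.88, 11.06, 11.13 and 11.03 in the non-beating and 10.18, 10.55, 10.74 and 10.71 in the beating samples. The groups did not overlap, although the difference was only -0.48 (-0.78 to -0.18; limma adjusted p = 0.0719). It passed when each array was centred on its median (adjusted p = 0.0486) and when dim clusters were left out before adjustment (adjusted p = 0.0445). Col10a1, the collagen of hypertrophic cartilage, had 3.62 to 4.36 in the non-beating and 4.01 to 4.56 in the beating samples, and Col8a2 stayed between 2.65 and 3.08. None of the 9 chondrocyte markers passed the test.

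The FACIT class held 9 genes, with 1 lower (Col14a1) and a median difference of -0.03. Col12a1, which encodes a fibril-surface collagen of tendon, fascia and muscle connective tissue, had the highest mean of the class. Its log2 signal was 9.73, 9.44, 9.59 and 9.45 in the non-beating and 8.85, 8.95, 9.88 and 9.62 in the beating samples, a difference of -0.22 (-0.76 to 0.31; limma adjusted p = 0.651). Beating replicates 1 and 2 were thus below, and replicate 3 above, every non-beating sample. Col19a1, a FACIT gene known from the developing muscle of the oesophagus, had 2.71, 2.38, 2.60 and 2.40 in the non-beating and 2.81, 3.18, 2.90 and 2.86 in the beating samples. The groups did not overlap and the difference was 0.42 (0.16 to 0.67; adjusted p = 0.0691), at signals mostly below the median of the arrays. The 6 other genes (Col9a1, Col9a2, Col9a3, Col16a1, Col20a1 and Col22a1) had means below 5 and differences between -0.12 and 0.02.

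Among the remaining classes, only Col28a1 passed. The 3 main type VI chains, which form the beaded filaments around fat and muscle cells, had differences of -0.12 (Col6a1), -0.05 (Col6a2) and -0.15 (Col6a3). Col6a1 had a log2 signal of 6.26, 6.24, 6.16 and 5.74 in the non-beating and 5.42, 5.98, 6.15 and 6.37 in the beating samples, and Col6a2 had 5.03, 5.24, 4.94 and 4.79 against 4.58, 4.69, 4.95 and 5.59. In both genes the groups overlapped. Col6a3 showed the widest contrast in spread of the 3: its log2 signal was 6.68, 6.60, 6.60 and 6.67 in the non-beating and 5.49, 6.21, 6.99 and 7.24 in the beating samples. The beating values lay on both sides of the tight non-beating ones. Col6a4, Col6a5 and Col6a6 were dim, with differences from -0.04 to 0.02.

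The multiplexin gene Col15a1, whose product bridges basement membranes and the fibres beneath them in muscle and vessels, had 5.09, 5.45, 5.45 and 5.50 in the non-beating and 4.93, 5.06, 6.59 and 6.36 in the beating samples. Its difference was 0.36 (-0.52 to 1.25; limma adjusted p = 0.663), and its paralogue Col18a1 differed by -0.02. Of the transmembrane collagens, Col25a1, known for its part in the innervation of muscle, had 2.80, 2.85, 3.02 and 2.95 in the non-beating and 3.05, 3.43, 3.58 and 3.71 in the beating samples. Every beating sample was above every non-beating one, and the difference was 0.54 (0.22 to 0.86; adjusted p = 0.0612). It passed as higher without beating replicate 1 (adjusted p = 0.00926), with arrays weighted by quality (adjusted p = 0.0192) and with dim clusters left out (adjusted p = 0.0369). Col13a1, Col17a1 and Col23a1 differed by -0.07 to 0.07 and Col26a1 by -0.04. Col13a1, the brightest of the transmembrane class, was at 3.66 to 3.71 in the non-beating and 3.53 to 3.73 in the beating samples, and Col7a1 of the skin anchoring fibrils at 3.89 to 4.02 against 3.87 to 4.03 (difference -0.02).

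In all, groups did not overlap for 5 of the 44 collagen genes. Beating was above non-beating for 2 (Col19a1 and Col25a1; 5.98% of all clusters) and below for 3 (Col14a1, Col28a1 and Col8a1; 8.24% of all clusters). Among the 14 brighter genes it was below for those 3 and above for none, where 23.4% and 9.93% of the clusters above a mean of 5 did so.

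A recurring feature of the brighter collagens was the spread within the beating group. The SD was larger in the beating than in the non-beating samples for 12 of the 14 genes, against 75.7% of the clusters above the same level, and the median ratio of the SDs was 3.53 against 1.66. Beating replicates 1 and 2 were both below replicates 3 and 4 for 12 of the 14, against 31.7% of those clusters. The exceptions were Col14a1 and Col5a1. This split was noticed in the collagen values themselves, so the count only describes them, and replicate numbers are only names. For 16 of all 44 collagens the same split was seen, against 18.2% of all clusters. The macrophage marker mean was also split, at 3.28 and 4.02 in beating replicates 1 and 2 and 4.24 and 5.18 in replicates 3 and 4. The fibroblast mean differed little (7.08 and 7.24 against 7.15 and 7.39), but its single markers went both ways. Fn1, Fbln2, Thy1 and Mfap5 had the same split as the collagens, Dpt and Lum had the reverse, and the other fibroblast markers had neither.

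**Figure D4:**
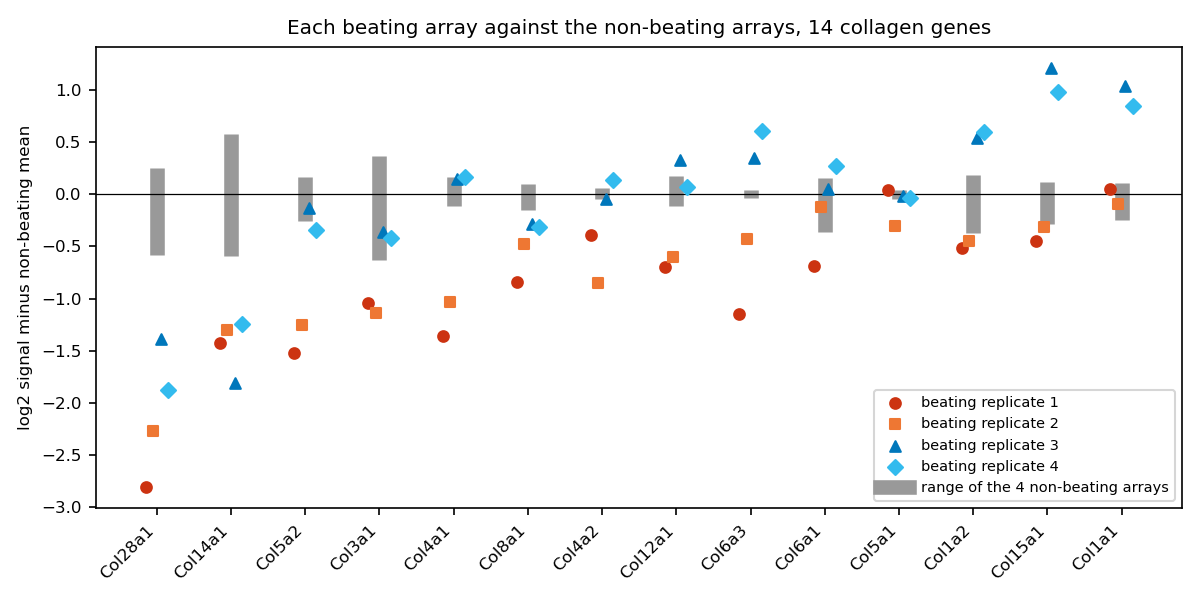
Log2 signal of each beating sample minus the mean of the 4 non-beating samples for the 14 collagen genes with a mean above 5, with grey bars for the range of the non-beating samples. Replicates 1 and 2 (red and orange) lie below replicates 3 and 4 (blues) for 12 of the 14 genes, and all 4 beating samples lie below the grey bar for Col28a1, Col14a1 and Col8a1.

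Collagen chains are modified, folded, cut and crosslinked by a set of enzymes and chaperones. These genes were read from the same fit together with collagen receptors, basement membrane partners and other genes with a collagen domain, 70 genes in 6 lists. Of these, 6 fell in the beating samples, none rose and 64 did not pass the test, where 3.34% of all clusters and 10.3% of those with a mean above 5 were lower. The lists were drawn up with earlier results of these data known, so their counts are descriptive.

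The list of prolyl and lysyl hydroxylases and collagen glycosyltransferases had 3 of 14 genes lower and a median difference of -0.32. Of the 14, 12 had a mean above 5, a level at which 10.3% of all clusters were lower and the median difference was -0.10. Crtap, the cartilage-associated protein of the prolyl 3-hydroxylase complex, had a log2 signal of 7.83, 7.71, 7.72 and 7.62 in the non-beating and 6.62, 6.71, 6.76 and 7.02 in the beating samples (difference -0.94, limma adjusted p = 0.0012). P4ha2, a catalytic subunit of the prolyl 4-hydroxylase that stabilises the triple helix, differed by -0.70 (adjusted p = 0.0464), and Plod3, a lysyl hydroxylase with glycosyltransferase activity, by -0.58 (adjusted p = 0.0331). In none of these 3 genes did a beating sample reach the lowest non-beating sample.

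Of the 9 genes of collagen folding and secretion, 1 was lower, Fkbp14, a prolyl isomerase of the endoplasmic reticulum. Its log2 signal was 6.91, 6.94, 7.15 and 6.82 in the non-beating and 5.21, 5.38, 6.34 and 6.02 in the beating samples (difference -1.22, adjusted p = 0.027). The list's median difference was -0.48. All 9 of its genes had a mean above 5, a level at which 10.3% of clusters were lower. None of 11 genes of procollagen processing and crosslinking (median -0.15), of 9 collagen receptors and uptake genes (median -0.40) or of 14 basement membrane partners such as laminins and nidogens (median -0.15) passed. Among 13 other genes with a collagen domain, 2 were lower (median -0.28): the scavenger receptor Colec12 at -0.73 (adjusted p = 0.00773) and Adipoq, the adipocyte hormone adiponectin, at -1.95 (adjusted p = 0.0211). The adipocyte markers, which include Adipoq, had 3 of 7 lower. Beside both of these counts, 3.34% of all clusters and 10.3% of those with a mean above 5 were lower. The count of 6 depended on single samples: it was 2 without non-beating replicate 3, and 3 without non-beating replicate 1 or 2 or without beating replicate 2 or 3.

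The round pool, a single array with no test, had a different range of signals from the others. Its array median was 3.54 against 3.08 to 3.17 on the 8 other arrays, and centring arrays on the median shifts every difference given here by -0.42. Of the 44 collagens, 10 were below all 8 other arrays and 26 above, against 24.4% and 46.4% of all clusters. Of the 14 brighter collagens, 10 were below all 8, 1 above (Col5a1) and 3 within their range (Col4a1, Col4a2 and Col15a1). Of the clusters above a mean of 5, 72.6% were below and 11% above. Of the 30 dim collagens, 25 were above all 8 arrays and none below, against 58.3% and 8.32% of dim clusters. The median difference between the round pool and the mean of the 8 arrays was -1.59 for the 14 genes and -1.22 for clusters of that level, and 0.99 against 0.36 for dim genes and clusters.

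Within this shift, the 2 lowest collagens were Col8a1 and Col12a1. Col8a1 was at 4.68 in the round pool and Col12a1 at 3.40, which was -6.11 and -6.04 relative to the mean of the 8 arrays. Among the 500 clusters nearest in mean signal, these differences were at the 4.2 and 3.0 percentile. In a list of 44 genes a few can lie this low without the list being unusual. Such ranks were also not particular to collagens: Lox was at the 2.4, Plod2 at the 4.0 and Fn1 at the 1.2 percentile. Col3a1, at 4.71, was the third lowest (-3.13) but at the 32.2 percentile, and the type I chains lay above the middle of the clusters of their level: Col1a1 was at 6.25 (-1.25, 72.2 percentile) and Col1a2 at 5.47 (-2.10, 53.4 percentile). The type IV chains were within the range of the 8 arrays, with Col4a1 at 5.72 (-0.33) and Col4a2 at 5.17 (-0.26). Col5a1 was at 5.44 (0.24), above all 8 arrays as deposited but not after median centring (-0.18).

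Among the collagens, the largest positive differences of the round pool were those of Col6a6 (1.37), Col9a2 (1.36) and Col26a1 (1.36). All were dim genes with a log2 signal of 5.35 to 5.49 in the pool. Among the 500 clusters nearest in mean signal, they were at the 92.4, 93.6 and 92.8 percentile, so many clusters of their level rose as much. Col6a6 was at 3.99, 3.99, 3.95 and 3.92 in the non-beating and 4.33, 3.82, 3.82 and 3.98 in the beating samples. The other, dimmer cluster of Col6a6 differed by only 0.33 in the round pool, at the 31.4 percentile of the 500 clusters nearest in mean signal. Col9a2 was at 4.13, 4.15, 4.04 and 4.20 against 4.48, 4.07, 4.03 and 3.95, and Col26a1 at 4.11, 4.16, 4.11 and 3.85 against 4.33, 3.92, 3.93 and 3.89. In each of them the pool lay above all 8 samples, while beating and non-beating overlapped. Col9a2 encodes a chain of the cartilage collagen type IX. The mean of the chondrocyte markers was 3.37 in the pool against 2.73 to 2.91 on the other arrays, and that of the epithelial markers, which are also dim, was 3.68 against 2.79 to 3.17. When the 9 arrays were forced to the same distribution of signals, the median for the 14 brighter genes was -0.82 in place of -1.59 and 5 rather than 10 of them were below all 8 arrays. Under that scaling the differences of Col6a6, Col9a2 and Col26a1 became 2.22, 2.27 and 2.24, and with median centring 0.95, 0.94 and 0.93. With the quantile scaling Col8a1 and Col12a1 kept their place below all 8 arrays, at -5.57 and -6.38, whereas Col4a1 changed sign to 0.74.

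**Figure D5:**
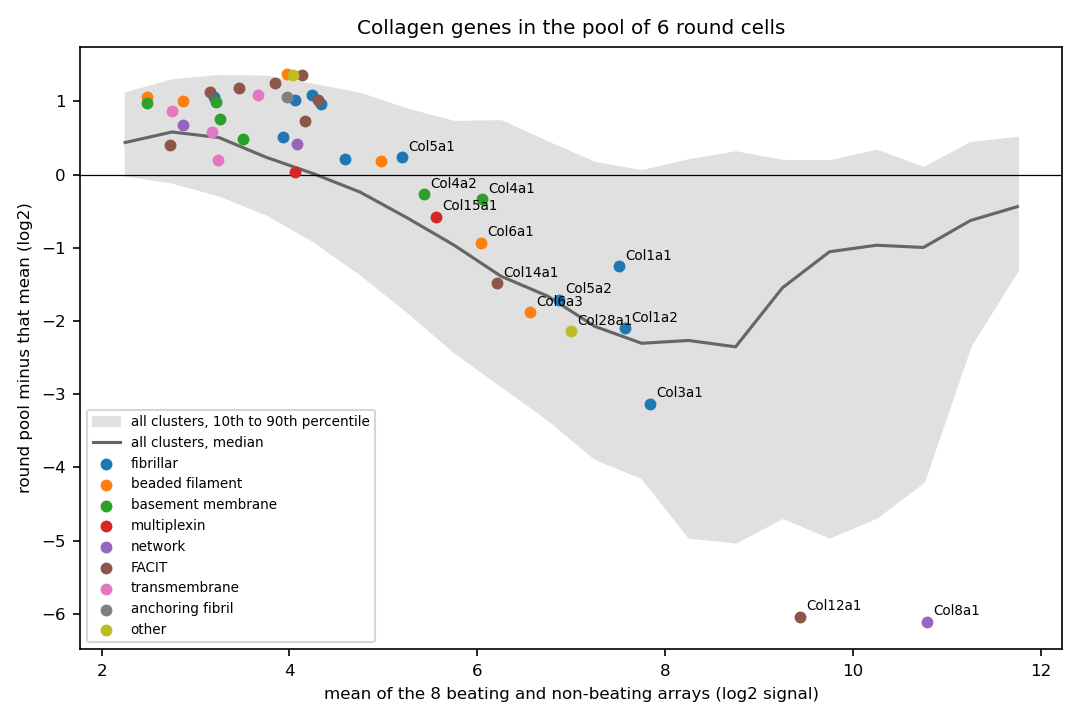
Log2 signal of the round pool minus the mean of the 8 beating and non-beating arrays (vertical axis) against that mean (horizontal axis) for the 44 collagen genes, with the median (line) and the 10th to 90th percentile (grey) of all clusters. Col8a1 and Col12a1 lie near -6, below the grey band, while the other collagens lie within or close to it. The band leaves out the lowest and the highest 10% of clusters, so some genes of any such set lie outside it.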

How the data were processed

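Total RNA was amplified with the Ovation Pico RNA WTA System and read on Affymetrix Mouse Gene 1.0 ST arrays. The authors deposited log2 signals. Their methods name scaling, normalisation and mean centring in BRB-ArrayTools, but clusters in the deposited table are not centred, so the normalisation behind it is not given in the sources used here. No scanner files were used here. The values were used as deposited. Of 33323 clusters, 21789 had a single symbol, 1621 several and 9913 none. The 4 beating and 4 non-beating arrays entered a limma 3.58.1 fit (lmFit and eBayes, R 4.3.3, two-sided) of all clusters with Benjamini-Hochberg adjustment at 0.05. In simulated data for this comparison, run on all 33323 clusters, 82 of 100 changes of 1 and 93 of 100 changes of -2 in log2 signal were recovered, with 11 false calls. The changed clusters were drawn at random from all clusters, and both groups were given the same SD. In the brighter collagens the median SD ratio, beating over non-beating, was 3.53, so these shares do not give the recovery for such genes. Precision is limited by how few arrays there are.

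The members and lists were chosen with earlier results of these data known. Collagen genes were named where they passed the test, encoded a chain of type I, III, IV, V or VI, had the highest mean of their class, or were among the 3 lowest or highest in the round pool, called partner genes were named, up to 3 a list, and other members are given by ranges or were named after their values were seen. Alternatives were other scalings, filters, weights and tests, a replicate block and leaving out each sample. Gene positions and promoter windows came from RefSeq (GRCm38.p6).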

Additional observations from a re-analysis of the deposited data

Results flagged for a closer look

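In 6 of 40 groups of 4 samples examined among the named collagen genes, a single sample stood far from the other 3. Chance alone marks about 1 in 20 such groups. In the non-beating group, replicate 4 was low for Col28a1 (7.4673 in log2 signal, the others 8.18 to 8.30), Col1a1 (7.0285, the others 7.32 to 7.38) and Col26a1 (3.8518, the others 4.11 to 4.16). Without that sample the difference of Col28a1 was -2.28 and its limma adjusted p 0.0116. Non-beating replicate 1 was low for Col15a1 (5.0933, the others 5.45 to 5.50) and Col7a1 (3.8873, the others 4.01 to 4.02). Beating replicate 1 was high for Col26a1 (4.3257, the others 3.89 to 3.93).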

How the results depend on the processing

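Col28a1 and Col14a1 were lower in the beating samples under every scaling, filter, weighting and limma fit tried, and leaving out each sample in turn kept both (2 lower calls throughout, adjusted p 0.00622 to 0.046 for Col14a1 and 0.00666 to 0.0363 for Col28a1). The methods' t-test gave 1 lower collagen after Benjamini-Hochberg adjustment, and 0 at the methods' unadjusted threshold with their fold filter. Over all clusters the 940 higher and 1114 lower calls became 491 and 375, and 195 and 26, under those tests, and 6 lower partner genes became 2 and 1. The fold filter kept 7976 clusters here. The paper kept more genes and reported more of them in each direction, so its procedure was not reproduced exactly. The number of higher collagens was 1 (Col25a1) in place of 0 with dim clusters left out, with array weights and without beating replicate 1, and Col8a1 was lower with median centring and with dim clusters left out. Higher partner genes numbered 1 under quantile normalisation and 2 with dim clusters left out or array weights. Leaving out single samples gave 0 to 1 higher collagens, 569 to 914 higher clusters (569 and 575 without non-beating replicate 2 or 3) and 438 to 1023 lower clusters (438 to 690 without a non-beating sample, 631 without beating replicate 2), and 0 to 2 higher and 2 to 7 lower partner genes. The causes were not tested.

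The non-beating cells were the other cells of the dishes, but the labels do not say whether same-numbered samples shared dishes. The main fit used no pairing. Over all clusters, deviations from the group means had correlations of -0.012, 0.028, -0.0094 and 0.020 between same-numbered samples. Such low values cannot show that the samples were unpaired. With the replicate number as a block, 637 clusters were higher and 645 lower, and both collagen calls held (adjusted p 0.0484 and 0.039).

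Differences near 0 changed sign: Col1a2 to -0.013 with median centring, Col6a2 to 0.064 and Col6a3 to 0.10 with array weights, Col6a6 to -0.024, -0.033 and -0.021 and Col9a2 to -0.026, -0.050 and -0.046 with quantile normalisation, median centring and array weights, and Col6a6 to -0.038 as a mean over its clusters. Leaving out samples gave ranges across 0 for Col1a2 (-0.14 to 0.23), Col6a1 (-0.25 to 0.068), Col6a2 (-0.26 to 0.076), Col6a3 (-0.41 to 0.18), Col6a6 (-0.089 to 0.081), Col9a2 (-0.11 to 0.069) and Col7a1 (-0.055 to 0.0073), for the network (-0.0035 to 0.14) and FACIT (-0.067 to 0.0018) class medians, and for the log2 ratios of Col4a1 over Col4a2 (-0.37 to 0.014), Col6a1 over Col6a2 (-0.16 to 0.0098) and Col6a3 over Col6a1 (-0.16 to 0.11). In the round pool, quantile normalisation moved the median of the 14 brighter collagens to -0.82 and left 5 of them below all 8 arrays. Dim collagens limit the reading, since a difference at background cannot be told from none.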
